A study of Mus musculus with 24 samples.

Results

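Translation initiation factors are the proteins that bring the initiator tRNA, the small ribosomal subunit and an mRNA together at a start codon. Their genes were described here in invariant natural killer T (iNKT) cells, lymphocytes whose T cell receptor recognises lipids presented by CD1d. The genes were chosen by name and level: protein-coding genes whose mouse symbol begins with Eif and a digit from 1 to 6, without Eif2s3x, Eif2s3y and the Eif2ak kinases. A mean of at least 1 CPM (counts scaled to the library total) over all libraries was also required. This gave 47 genes, of 49 that met the name rule and of 55335 genes in the table. The lowest of them was Eif5a2, with a mean of 1.84 CPM, and the 2 below the threshold were Eif4ebp3 at 0.827 CPM and Eif4e1b at 0.0927 CPM. The rule uses no difference between groups, but the set was chosen with earlier results of these data known. All 47 genes passed the filter on low counts.

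The cells came from mesenteric lymph nodes of C57BL/6J mice, taken 24 h after a gavage of 200 µL PBS that held 2 µg alpha-galactosylceramide (aGC) or no lipid. aGC is a glycolipid that iNKT cells recognise on CD1d. The mothers of all mice, controls included, had received a fecal transplant (FT) from wild-type donors (WT FT) or from CD1d-knockout donors (KO FT). WT and KO thus name the donor of the microbiota and not the genotype of the cells. With sex as a further factor there were 8 groups of 3 libraries, 24 in all: WT FT or KO FT, PBS or aGC, female or male. No age of the mice is used here.

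The libraries held 9764931 to 37016768 counts each, so that 3 counts, the limit that a count of 0 allows, stood for 0.0810 to 0.307 CPM. That limit covers counting error only. Nothing in the labels tells whether libraries of one group stem from separate mice. The p-values therefore measure only the scatter of these libraries, which may be technical, and counts of genes are also given from a fit on 1 summed profile per group. Effects of the FT donor and of dam, litter or cage cannot be told apart. Summed levels of 8 iNKT markers were 4815 to 6457 CPM after PBS and 3948 to 4878 CPM after aGC, and within each FT and sex all aGC libraries lay below all PBS libraries. Among the 8 was Trav11, a segment of the invariant receptor, at 325 to 879 CPM. Also among them were Cd3e, Cd3g, Il2rb and Tbx21, which other T cells can express, so the sum does not measure iNKT cells alone. The summed level of Cd8a and Cd8b1, markers of conventional CD8 T cells, was 392 to 862 CPM in WT FT PBS males, WT FT aGC females, KO FT PBS males and KO FT aGC females. It was 14.0 to 19.8 CPM in the other 4 groups. The 6 naive T cell genes moved with it, summing to 1885 to 2854 CPM in the former groups and 777 to 1149 CPM in the latter. A list of 5 B cell genes summed to 966 to 1066 CPM after PBS and 448 to 712 CPM after aGC, without overlap. Nearly all of it was Ighm, with group means of 463 to 1032 CPM, while group means of Cd79a and Ms4a1 were at most 3.70 and 1.89 CPM and those of Cd79b at most 15.5 CPM. Myeloid genes summed to at most 74.1 CPM and epithelial genes to at most 12.1 CPM. Fewer cells of a type and less RNA per cell cannot be told apart in such bulk libraries, and the part of these marker patterns in the results was not tested. The comparisons of aGC, of FT and of their combination are also given without the 4 CD8-high groups, on 14358 tested genes. Sex cannot be compared there, since it leaves only PBS females and aGC males.

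As background, initiation proceeds in steps. The factor eIF2 delivers the initiator tRNA and is recharged by eIF2B, while eIF1, eIF1A and eIF5 set the accuracy of start codon choice and the large eIF3 complex holds the small subunit. The cap-binding complex eIF4F, made of eIF4E, eIF4A and eIF4G, recruits the mRNA and is held in check by the eIF4E-binding proteins. eIF5B and eIF6 act at the joining of the large subunit, and eIF5A aids peptide bond formation on difficult sequences. T cells raise protein synthesis when their receptor is engaged, and the transcription factor Myc, a known regulator of several of these genes, binds the E-box sequence CACGTG.

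Promoters of Eif4e, Eif5a and Eif4a1 are shown as examples that hold an E-box, in genes that rose after aGC. Eif4a2, shown last, holds none in the stretch printed and moved opposite to its paralogue Eif4a1 in WT FT mice. Sequences are from RefSeq on GRCm38.p6, written 5′ to 3′ on the strand of the gene, with the E-box in capitals. The E-box began 64 bases before the RefSeq start in Eif4e, 74 in Eif5a and 189 in Eif4a1. By the wider gene bounds of GENCODE, given below, the stretches of Eif4e and Eif5a lie inside the gene. The stretch of Eif4a1 lies before the gene by both sources. The Eif4a2 sequence runs up to the start that GENCODE gives.
Eif4e, chr3:138527192-138527221, plus strand: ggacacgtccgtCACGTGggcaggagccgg
Eif5a, chr11:69921408-69921507, minus strand: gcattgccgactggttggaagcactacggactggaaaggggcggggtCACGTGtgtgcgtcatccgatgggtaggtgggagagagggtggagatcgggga
Eif4a1, chr11:69672560-69672659, minus strand: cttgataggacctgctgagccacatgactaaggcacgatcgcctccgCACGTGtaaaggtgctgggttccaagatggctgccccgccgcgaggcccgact
Eif4a2, chr16:23107343-23107442, plus strand: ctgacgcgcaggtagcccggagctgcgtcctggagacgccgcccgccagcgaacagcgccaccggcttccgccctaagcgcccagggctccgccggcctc

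Promoter windows, from 250 bases before to 50 after a RefSeq start, were matched for 37 of the 47 genes. CACGTG, which reads the same on both strands, was in at least 1 window of 10 of these 37 genes (27.0%) and of 2187 of 27025 genes in the whole table of windows (8.09%). The 10 were Eif1b, Eif3a, Eif3f, Eif3k, Eif4a1, Eif4e, Eif4g1, Eif4h, Eif5a and Eif5a2. A run of a C and at least 6 further pyrimidines within 5 bases before to 11 after the start, as at the start of many mRNAs of the translation machinery, was found in 4 of the 37 (10.8%) and in 7.64% of all genes with a window. These shares are descriptions, and a match is not a shown binding site. Of the 10 genes that hold the box, Eif3a, Eif3k, Eif4a1, Eif4e, Eif4g1, Eif4h and Eif5a rose past the threshold after aGC in both FTs. Eif5a2 passed in KO FT only, and Eif1b and Eif3f in neither. Eif4e and Eif5a rose more than Eif4a1 in WT FT, as given below. So did Eif2s2, Eif3b, Eif3d, Eif1ax, Eif2s1 and Eif3g, which hold none in their windows. The part of the box in the response was not tested.

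Levels can be compared between genes only per length, here as mean CPM per kilobase of the transcript with the longest coding sequence. On that scale Eif5a stood highest at 1718, followed by Eif1, whose product acts in start codon choice, at 698. Eif3g at 313, Eif3b at 275 and Eif4a3 at 266 came next. Eif4e, the cap-binding subunit, stood at 60.5, below Eif4a1 at 225 and Eif4a2 at 124, and Eif5a2 stood lowest at 0.366. The eIF4E-binding protein genes Eif4ebp1 and Eif4ebp2 stood at 13.0 and 5.79.

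The 47 genes together held a larger share of all counts after aGC than after PBS in every group. In WT FT mice the share was 0.989 to 1.00% in the 3 PBS female libraries and 0.965 to 0.996% in the males, and after aGC 1.54 to 1.56% in females and 1.84 to 1.90% in males. In KO FT mice it went from 0.967 to 0.983% in females and 0.898 to 0.930% in males to 1.42 to 1.47% and 1.45 to 1.52%. No aGC library overlapped any PBS library. Among the aGC groups the WT FT males stood alone at the top, and both KO FT groups lay below both WT FT groups. Without Eif5a, the most abundant of the genes, the share was 0.788 to 0.856% after PBS, 1.18 to 1.43% after aGC in WT FT and 1.14 to 1.18% after aGC in KO FT. The WT FT aGC females, at 1.18163 to 1.18645%, then overlapped the KO FT aGC females (1.15056 to 1.18364%) and males (1.1395 to 1.18211%). Only the WT FT aGC males, from 1.39561%, stayed above both KO FT groups without overlap.

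**Figure D1:**
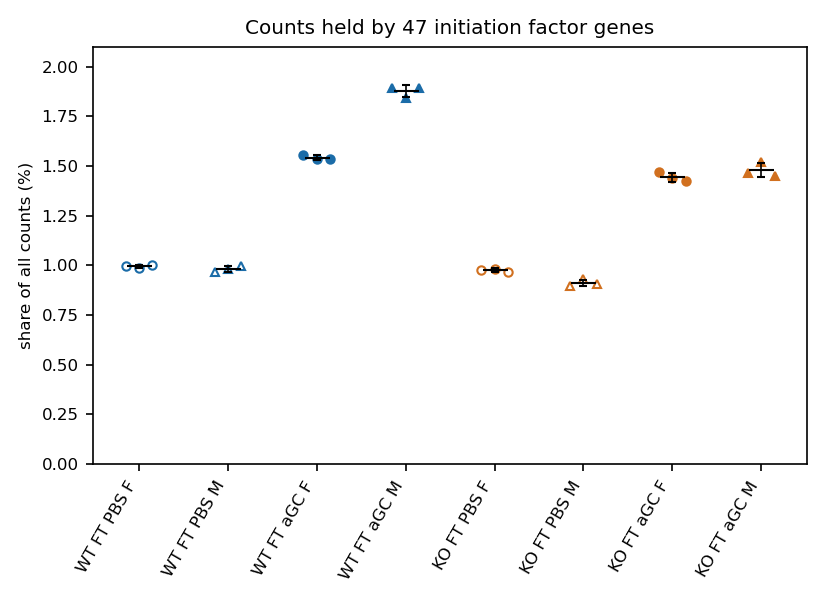
Share of all counts (%) held by the 47 initiation factor genes in each of 24 libraries, by FT donor, treatment and sex (F female, M male). Points are libraries (blue WT FT, orange KO FT, open PBS, filled aGC, circles females, triangles males) and bars the mean ± SD (n = 3). All 12 aGC libraries lie above 1.4% and all 12 PBS libraries at or below 1.00%.

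The first comparison asked how the genes responded to aGC when the microbiota came from wild-type donors. Most initiation factor genes rose: of the 47, 39 passed the threshold toward higher levels, 3 toward lower levels and 5 did not pass (edgeR quasi-likelihood test, Benjamini-Hochberg adjusted p under 0.05). Among all 15953 tested genes 30.8% passed toward higher and 37.4% toward lower levels. The median change of the 47 was 0.74 on the log2 scale, against -0.11 for all tested genes. In 36 of the 47 genes all 6 aGC libraries lay above all 6 PBS libraries, and in 2 all lay below (17.9% and 15.5% of tested genes). In the fit on 1 profile per group, 22 of the 47 passed toward higher levels (7.39% of tested genes) and none toward lower (2.75%; edgeR, 36 of the 47 with an unadjusted p under 0.05). All 22 were among the 39. Without the CD8-high groups, which leaves PBS females against aGC males, 41 rose and 2 fell (30.1% and 33.2% of tested genes), and 41 of the 42 calls were kept with their direction.

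Of the 4 genes of subunit joining and the steps after it, 3 rose and Eif5a2 did not pass. Eif5a (ENSMUSG00000078812.10, chromosome 11, 69916714 to 69921958, GRCm38) encodes a protein that carries the unusual amino acid hypusine. Its level in the 6 WT FT PBS libraries was 1369, 1432 and 1459 CPM (lowest, median and highest), and in the 6 aGC libraries 3769, 4468 and 5050 CPM. It rose 3.10-fold, by 1.63 ± 0.03 on the log2 scale (SE, adjusted p = 4.85e-23), with the aGC males above the aGC females. Eif6, whose product keeps the large subunit free until it is needed, went from 225 to 288 CPM to 572 to 673 CPM (log2 change 1.28 ± 0.04, adjusted p = 1.93e-18). Eif5b, the gene of the GTPase of subunit joining, rose by 0.87 on the log2 scale. Eif5a2, a rare paralogue of Eif5a, lay between 0.533 and 3.23 CPM in these 12 libraries and did not pass (adjusted p = 0.172). Without WT FT aGC male replicate 2 its adjusted p was 0.0493.

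Of the 5 genes of eIF2B, the exchange factor that reloads eIF2 with GTP, all 5 rose. Eif2b3 (ENSMUSG00000028683.14, chromosome 4, 117019402 to 117087306), the gene of its gamma subunit, had the highest log2 change of the 47 genes. Its level was 28.9, 33.8 and 42.3 CPM after PBS and 102, 128 and 157 CPM after aGC, and these did not overlap (log2 change 1.87 ± 0.05, adjusted p = 1.80e-20). The other subunits rose less, from 0.29 for Eif2b2 to 0.99 for Eif2b1. The 4 genes of initiator tRNA delivery rose as well. Eif2s1 and Eif2s2, the genes of the alpha and beta subunits of eIF2, went from medians of 206 and 90.3 CPM to 419 and 212 CPM (log2 changes 1.22 and 1.37). The gene model Gm9892 shares 83.9% of its 31-base words with Eif2s2, and with its counts added the log2 change of Eif2s2 was 1.39. In both genes the rise was larger in males, as described with the sexes. Eif2a and Eif2d, whose products can bring tRNA to the ribosome without eIF2, rose by 0.60 and 0.28.

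Start site selection was covered by 6 genes, of which 5 rose. Eif1a and Eif1ax, autosomal and X-linked genes of eIF1A, rose by 1.39 ± 0.06 and 1.24 ± 0.11 (log2, SE). Eif1a went from 40.4 to 61.6 CPM after PBS to 121 to 163 CPM after aGC. Eif1ad and Eif5, the gene of the protein that triggers GTP hydrolysis by eIF2, rose by 0.64 and 0.51, and the abundant Eif1 by 0.28. Its paralogue Eif1b stood at 65.6, 72.8 and 74.7 CPM after PBS and 69.0, 76.4 and 79.1 CPM after aGC, and did not pass (adjusted p = 0.291).

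Of 14 genes of eIF3, the scaffold of the initiation complex, 13 rose and Eif3f did not pass. The highest changes were those of Eif3i (1.36 ± 0.04), Eif3b (1.27 ± 0.04) and Eif3d (1.27 ± 0.05), and the lowest of those that passed was Eif3h (0.49 ± 0.04). Eif3b, a core subunit, had 462, 512 and 558 CPM after PBS and 1140, 1274 and 1284 CPM after aGC. Eif3i went from 90.6 to 117 CPM to 248 to 294 CPM. Eif3f overlapped between treatments, with 86.1, 111 and 127 CPM after PBS and 87.0, 117 and 137 CPM after aGC (log2 change 0.11 ± 0.07, adjusted p = 0.174). It passed without WT FT aGC female replicate 1 (adjusted p = 0.0397) and, at 0.48, without the CD8-high groups. Of the 31-base words of the Eif3j2 transcript 94.0% are present in Eif3j1, and 41.0% of those of Eif3j1 in Eif3j2, so the division of counts between them is uncertain. With their counts added, the log2 change was 0.98.

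In the cap-binding group 7 of 11 genes rose, 3 fell and Eif4g2 did not pass. Eif4e (ENSMUSG00000028156.12, chromosome 3, 138526179 to 138559696) went from 160, 199 and 238 CPM to 437, 497 and 579 CPM (log2 change 1.35 ± 0.05, adjusted p = 2.34e-18). Its paralogue Eif4e2 rose by 0.64, while Eif4e3, a further member of the cap-binding family, fell from 24.0, 31.7 and 39.2 CPM to 18.8, 19.8 and 21.4 CPM (log2 change -0.63 ± 0.06, adjusted p = 4.12e-09). The aGC libraries lay below all PBS libraries for Eif4e3. The helicase genes likewise split. Eif4a1 (ENSMUSG00000059796.16, chromosome 11, 69666936 to 69672423) went from 270, 279 and 303 CPM to 480, 600 and 698 CPM (log2 change 1.04 ± 0.04). Eif4a2 (ENSMUSG00000022884.15, chromosome 16, 23107444 to 23114136) went from 158, 173 and 176 CPM to 114, 121 and 141 CPM (log2 change -0.44 ± 0.06, adjusted p = 7.22e-07). Eif4a3, whose helicase belongs to the exon junction complex, rose by 0.66, and the helicase cofactors Eif4b and Eif4h by 0.64 and 0.74.

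Eif4a1 shares 97.4% of the 31-base words of the processed pseudogene Eif4a-ps4, which held 42.3 to 50.6% of the counts of the pair. The level of Eif4a1 is therefore uncertain, and with the counts of the copy added its log2 change was 1.10 ± 0.04. Of the scaffold genes, Eif4g1 rose by 0.41 and Eif4g3 fell by 0.18 on the log2 scale. The fall of Eif4g3 lost its call when any of 5 single libraries was left out (adjusted p up to 0.101), and without the CD8-high groups its value was 0.27. Eif4g2, whose product lacks the site for eIF4E, averaged to 0.05 ± 0.06 over the sexes, which moved in opposite directions.

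Of the 3 genes for proteins that bind eIF4E and keep it from eIF4G or the cytoplasm, Eif4ebp1 and Eif4enif1 rose and Eif4ebp2 did not pass. Eif4ebp1 (ENSMUSG00000031490.6, chromosome 8, 27260329 to 27276674), the target of the kinase complex mTORC1, had 15.4, 19.0 and 20.4 CPM after PBS and 36.4, 44.2 and 48.3 CPM after aGC (log2 change 1.19 ± 0.08, adjusted p = 3.90e-13). Eif4ebp2 overlapped, with 24.6, 27.6 and 29.3 CPM after PBS and 19.8, 28.4 and 33.6 CPM after aGC (adjusted p = 0.725). Eif4enif1, whose product carries eIF4E into the nucleus, rose by 0.68.

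**Figure D2:**
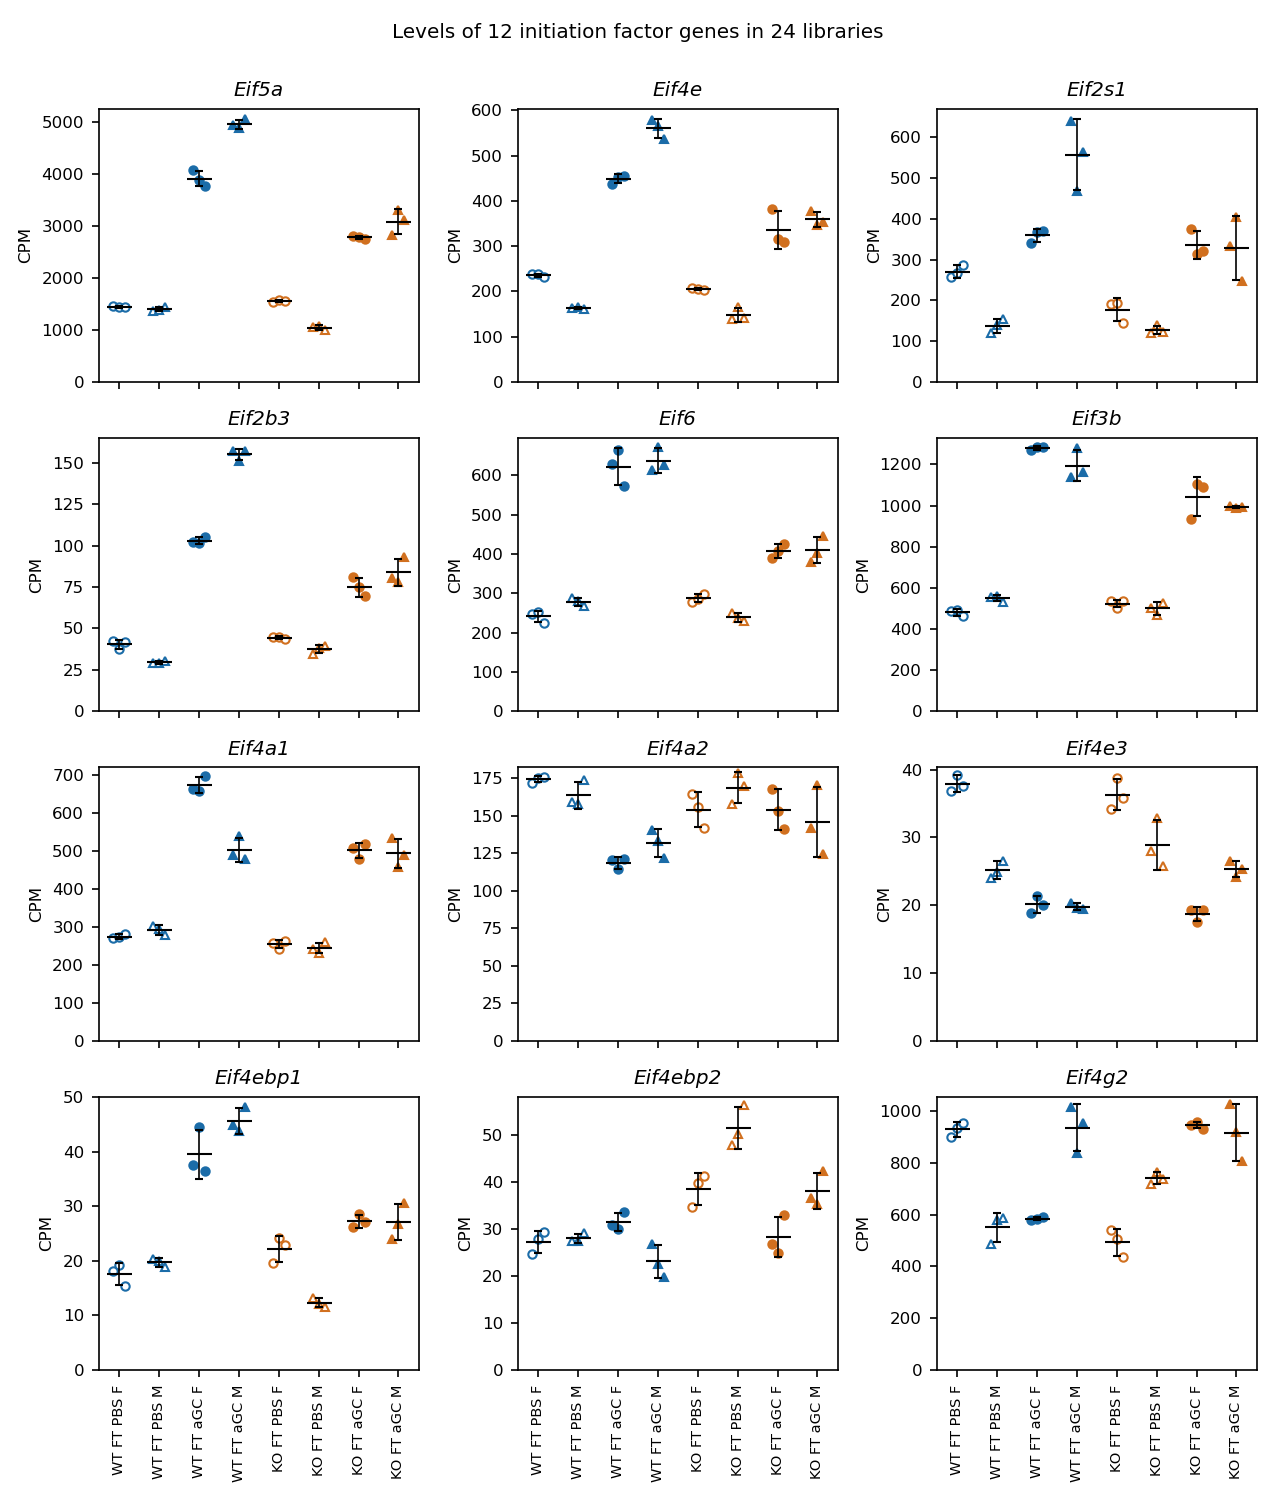
Level of 12 initiation factor genes (TMM-scaled CPM, linear axes from 0) in each of 24 libraries, by FT donor, treatment and sex (F female, M male). Points are libraries (blue WT FT, orange KO FT, open PBS, filled aGC, circles females, triangles males) and bars the mean ± SD (n = 3). Eif5a in WT FT mice is at 1369 to 1459 CPM after PBS and 3769 to 5050 CPM after aGC, and Eif4g2 moves in opposite directions in WT FT females and males.

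The same question was asked in KO FT mice, whose microbiota came from donors without CD1d. There 38 of the 47 genes rose, 3 fell and 6 did not pass, against 28.0% and 30.0% of tested genes toward higher and lower levels. The median log2 change was 0.61, against -0.03 for all tested genes. In 32 genes all 6 aGC libraries lay above all 6 PBS libraries (12.6% of tested genes) and in none below (10.7%). On 1 profile per group, 6 passed toward higher levels (1.92%), all among the 38, and none toward lower (0.157%; edgeR, 28 of the 47 with an unadjusted p under 0.05). Without the CD8-high groups 35 rose and 3 fell (26.6% and 25.4%), and 36 of the 41 calls were kept.

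Of the 47 genes, 36 rose past the threshold in both FTs (20.0% of tested genes), which is 36 of the 39 that rose in WT FT and 36 of the 38 in KO FT. In each FT and sex taken alone, 35 genes rose past the threshold in all 4 cases (10.6% of tested genes). Eif4e3 fell in both FTs. Its log2 change in KO FT was -0.58 ± 0.06, from 25.7, 33.6 and 38.8 CPM to 17.5, 21.7 and 26.5 CPM, with the lowest PBS and highest aGC libraries overlapping.

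As in WT FT, Eif5a was among the genes with the highest changes, from 992, 1310 and 1568 CPM to 2743, 2811 and 3296 CPM (log2 change 1.20 ± 0.03, adjusted p = 3.33e-20). Eif2s1, Eif1a and Eif2s2 followed at 1.15, 1.14 and 1.09, and Eif4a1, Eif3b and Eif4e at 1.00, 0.99 and 0.99. Eif2b3 rose from 34.7 to 45.0 CPM to 69.3 to 93.2 CPM (0.96 ± 0.05). Eif2b2, which rose in WT FT, fell in KO FT, from a median of 131 to 116 CPM (log2 change -0.18 ± 0.06, adjusted p = 0.00940), a call that was lost without KO FT aGC male replicate 1 (adjusted p = 0.0514). Eif1 and Eif2d rose in WT FT, and in KO FT their log2 changes were 0.01 and -0.09 and did not pass. Eif2d passed without KO FT PBS female replicate 1 or KO FT aGC female replicate 1 (adjusted p down to 0.0378), and without the CD8-high groups at -0.20. Eif5 passed at 0.11 (adjusted p = 0.0419), lost the call without any of 8 single libraries (adjusted p up to 0.155), and was at -0.07 without the CD8-high groups.

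Among the eIF4E-binding genes, Eif4ebp1 rose by 0.72 ± 0.08 in KO FT and Eif4ebp2 fell, from 34.6, 44.5 and 56.3 CPM to 24.9, 34.1 and 42.3 CPM (log2 change -0.44 ± 0.08, adjusted p = 4.72e-05). This fall was no longer there without the CD8-high groups, at -0.0032 (adjusted p = 0.985). The highest aGC library of Eif4ebp2 lay above the lowest PBS library. Eif1b and Eif3f were at -0.08 and 0.16 and did not pass. They passed without KO FT aGC male replicate 3 for Eif1b and without any of 4 single libraries for Eif3f (adjusted p down to 0.0459 and 0.0118). Eif3f also passed without the CD8-high groups, at 0.36. Eif4g2 rose by 0.62 ± 0.06, and the rare Eif5a2 by 0.91 ± 0.23 (adjusted p = 0.00135). Eif4a2 stood at 142, 161 and 178 CPM after PBS and 125, 147 and 171 CPM after aGC and did not pass (adjusted p = 0.130). Without KO FT aGC male replicate 2 it passed toward lower levels (adjusted p = 0.0130).

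**Figure D3:**
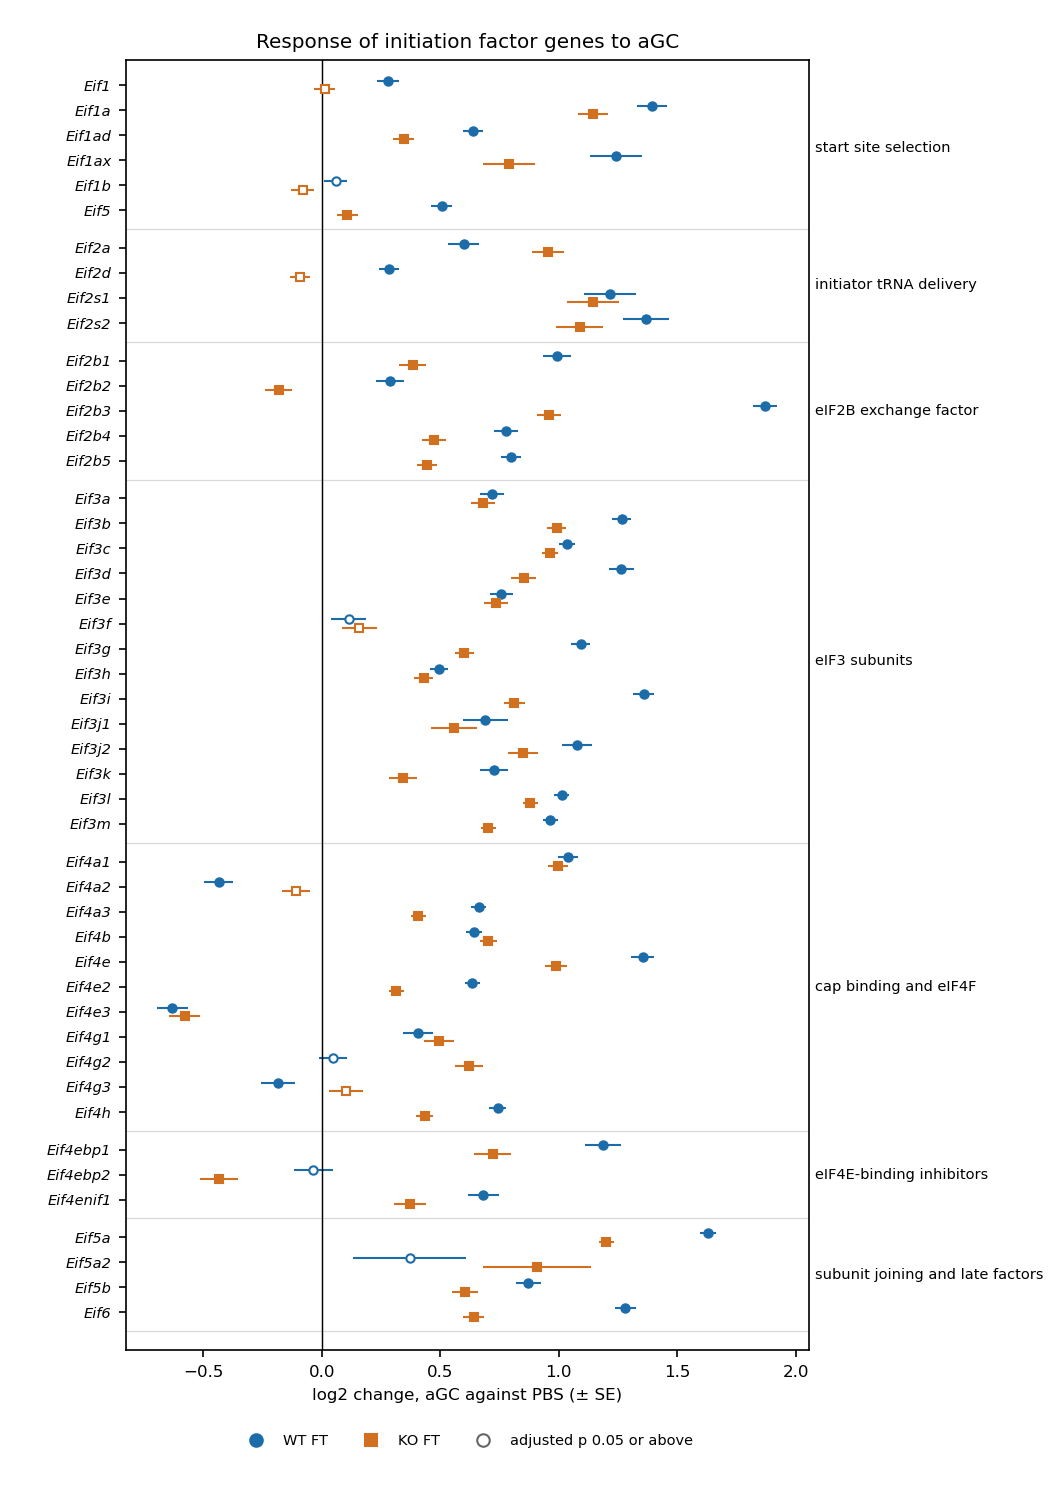
Log2 change of each of the 47 initiation factor genes, aGC against PBS, grouped by role, with bars for the SE of the edgeR fit on 24 libraries. Blue circles are WT FT and orange squares KO FT, open where the adjusted p was 0.05 or above. Most genes lie to the right of 0 in both FTs, while Eif4e3 lies to the left in both.

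Exchange between paralogues was read from log2 ratios within a library, tested by an exact two-sided permutation test over 6 against 6 libraries and adjusted over 6 tests. The test took libraries as units without regard to sex, and the ratios were not tested on 1 profile per group. The ratio of Eif4a1 to Eif4a2 lay between 0.64 and 0.93 after PBS and between 1.80 and 2.53 after aGC in WT FT. It rose by 1.48 (adjusted p = 0.00325, from the smallest p that the exact permutation test can give, 0.00216). In KO FT it went from 0.38 to 0.89 to 1.42 to 1.97, a rise of 1.11 (exact permutation test, adjusted p = 0.00325). The ratio of Eif4ebp1 to Eif4ebp2 rose by 1.23 in WT FT and by 1.16 in KO FT (exact permutation test, adjusted p = 0.00325 for each), with no overlap between treatments in either FT. Its range was -0.93 to -0.43 after PBS and 0.12 to 1.29 after aGC in WT FT, and -2.27 to -0.71 and -0.60 to 0.19 in KO FT. These ratios are of CPM and not per length, so their changes can be read but not their sign. The ratio of Eif1 to Eif1b rose by 0.22 in WT FT (exact permutation test, adjusted p = 0.0208) and by 0.09 in KO FT, where it did not pass (exact permutation test, adjusted p = 0.333). Ratios were not tested without the CD8-high groups. There the log2 changes of Eif4ebp1 and Eif4ebp2 were 1.38 and -0.23 in WT FT, but 0.30 and -0.0032 in KO FT. Those of Eif4a1 and Eif4a2 were 0.88 and -0.40 in WT FT and 0.97 and -0.07 in KO FT.

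**Figure D4:**
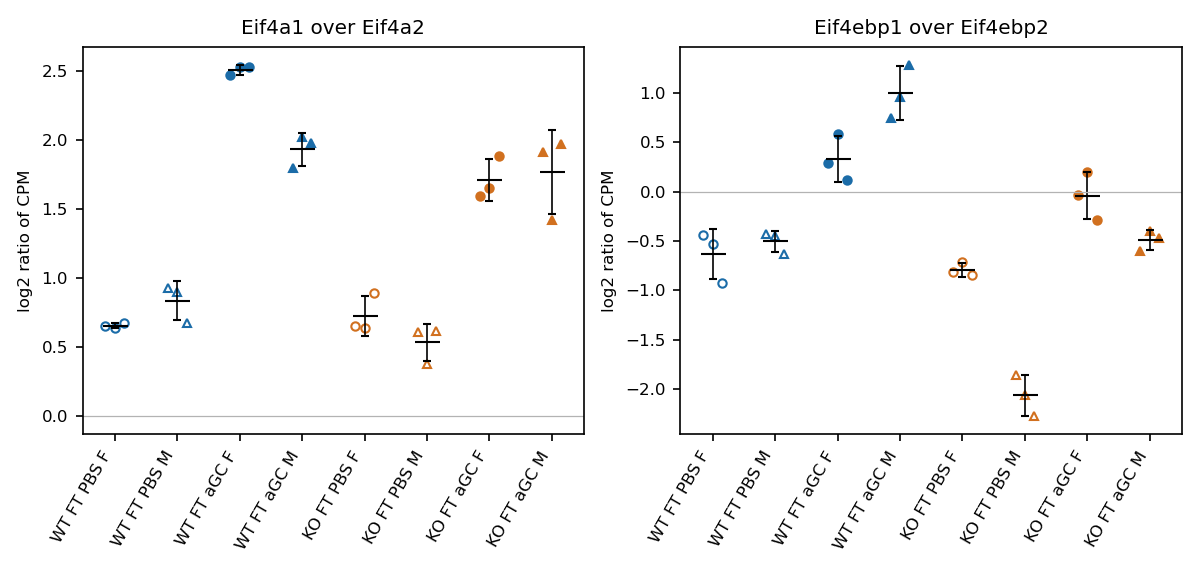
Log2 ratio of CPM within each of 24 libraries, Eif4a1 over Eif4a2 (left) and Eif4ebp1 over Eif4ebp2 (right), by FT donor, treatment and sex (F female, M male). Points are libraries (blue WT FT, orange KO FT, open PBS, filled aGC, circles females, triangles males), bars the mean ± SD (n = 3) and the grey line marks a ratio of 1 in CPM, which is not equal levels per length. Within each FT every aGC library lies above every PBS library in both panels.

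Other genes of translation were read from a list of 59 genes outside the 47, of which 58 passed the filter on low counts. Each count below is of genes past the same threshold for aGC. Of all tested genes, 30.8% rose and 37.4% fell in WT FT, and 28.0% rose and 30.0% fell in KO FT. The counts per role are of few genes and were not tested against these shares. Myc rose by 2.12 ± 0.05 in WT FT, from group means of 155 ± 3.34 CPM in females and 232 ± 9.24 in males (SD, n = 3) to 806 ± 50.2 and 846 ± 7.97, and by 1.76 ± 0.05 in KO FT. Both release factor genes rose, Etf1 by 1.52 and 1.34 and Gspt1 by 1.31 and 1.01 in WT FT and KO FT. Dhps and Dohh, whose enzymes make the hypusine of eIF5A, both rose, by 0.74 and 1.08 in WT FT and 0.41 and 0.56 in KO FT. Of 7 elongation genes 6 rose in WT FT and 5 in KO FT and none fell. Eef1d, a subunit of the exchange factor of elongation, rose by 1.72 and 1.09. Eef2k, the gene of the kinase that inhibits elongation, did not pass in either.

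Of 6 genes for helicases and reinitiation 5 rose in each FT and none fell, led by the ribosome recycling factor Abce1 at 0.97 and 1.11. Of 9 poly(A)-binding and cap regulator genes 5 rose and 1, Paip2, an inhibitor of the poly(A)-binding protein, fell in each FT. Pdcd4, the gene of an inhibitor of eIF4A, fell by 0.61 in WT FT and by 0.53 in KO FT on the log2 scale. The eIF4E kinase genes Mknk1 and Mknk2 both fell in WT FT, by 0.51 and 0.63 on the log2 scale. In KO FT Mknk1 fell by 0.21, and Mknk2 was at 0.01 and did not pass.

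Of 8 genes for eIF2 kinases and their regulation, 5 fell, 1 rose and 2 did not pass in WT FT, and 3 fell, 3 rose and 2 did not pass in KO FT. Eif2ak2, the kinase that senses double-stranded RNA, fell in both, by 0.55 and 0.80 on the log2 scale. Impact, which restrains the kinase of amino acid shortage, fell in WT FT by 1.49 ± 0.18 on the log2 scale and was at 0.09 ± 0.16 in KO FT. That difference passed (log2 1.58 ± 0.24, KO FT minus WT FT, adjusted p = 1.27e-05). Of 4 genes of the response to eIF2 phosphorylation, Atf4 rose by 0.92 and 0.46 and Asns by 4.06 and 2.46, from group means below 1.63 CPM, while Ddit3 fell by 0.87 and 0.60 on the log2 scale. Of 11 genes of mTORC1 and S6 kinase, 6 rose and 4 fell in WT FT and 3 rose and 3 fell in KO FT. Mtor rose by 0.90 and Rptor, its partner in mTORC1, fell by 1.21 on the log2 scale in WT FT. In KO FT these were at 0.20 and 0.04 and did not pass. Both differences passed (edgeR, Mtor, log2 -0.71, adjusted p = 9.65e-05, and Rptor, 1.25, adjusted p = 3.25e-08). The differences of Impact, Mtor and Rptor are given only from the fit on all 24 libraries, and not without the CD8-high groups. With 1 profile per group no gene of the table passed for a difference of response. Eif2s3x, the X-linked gene of the gamma subunit of eIF2, rose by 0.66 and 0.73.

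Whether the donor of the microbiota mattered at rest was read from KO FT against WT FT after PBS. Of the 47 genes 4 were higher and 12 lower in KO FT, and 31 did not pass, against 14.4% of tested genes toward higher and 14.8% toward lower levels. The median log2 difference was -0.04, against 0.00 for all tested genes. Eif2a was lowest relative to WT FT, at 15.9, 21.1 and 24.8 CPM in KO FT against 30.4, 32.8 and 37.6 CPM in WT FT, with no overlap (log2 difference -0.67 ± 0.07, adjusted p = 1.69e-07). Eif4ebp2 was higher, at 34.6, 44.5 and 56.3 CPM against 24.6, 27.6 and 29.3 CPM, also with no overlap (log2 difference 0.69 ± 0.08, adjusted p = 8.52e-07). Both differences passed in each sex, at -0.48 and -0.85 for Eif2a and 0.51 and 0.87 for Eif4ebp2 in females and males. The other 14 genes that passed differed by at most 0.36 in size, among them Eif2b1 at 0.28, Eif2b3 at 0.24, Eif4g1 at 0.24 and Eif2s1 at -0.36. The call of Eif2s1 was lost without WT FT PBS male replicate 3 or KO FT PBS female replicate 3 (adjusted p up to 0.0520).

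The sexes gave different pictures of this comparison. In females 13 genes were higher and 9 lower in KO FT (14.7% and 14.8% of tested genes), and in males 5 were higher and 21 lower (21.1% and 21.4%). The female libraries are those with low Cd8a, and the male ones those with high Cd8a. The males also differed by FT: Cd8a and Cd8b1 summed to 392 to 395 CPM in KO FT and 853 to 862 CPM in WT FT. Their naive T cell genes summed to 2331 to 2399 CPM in KO FT and 2793 to 2854 CPM in WT FT. The part of this in the male differences was not tested. Eif4g2 was lower in KO FT females, at 436, 504 and 540.5 CPM against 899, 935 and 955 CPM, and higher in KO FT males, at 720, 740 and 767 CPM against 486, 580 and 587 CPM (log2 differences -0.91 and 0.43). Eif5a was lower in KO FT males (log2 difference -0.43) and at 0.11 in females, which did not pass. Leaving out the CD8-high groups keeps the females, where in that fit 12 genes were higher and 9 lower (14.2% and 14.9%), and 8 of the 16 calls were kept. Eif2b1 and Eif2b3 then did not pass, at 0.22 and 0.13. With 1 profile per group no gene of the 47 passed in either direction (edgeR, 2 with an unadjusted p under 0.05), and no gene of the table did.

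After aGC the initiation factor genes were mostly lower in KO FT than in WT FT mice. Of the 47, 36 were lower, 6 higher and 5 did not pass, against 26.5% of tested genes lower and 25.4% higher. The median log2 difference was -0.31, against 0.00 for all tested genes. Every gene of start site selection, initiator tRNA delivery and eIF2B was lower, as were 11 of 14 eIF3 genes. The lowest values were those of Eif2b3 (-0.67 ± 0.05), Eif4ebp1 (-0.64 ± 0.08), Eif6 (-0.62 ± 0.04), Eif5a (-0.59 ± 0.03), Eif3i (-0.55 ± 0.04) and Eif4e (-0.53 ± 0.05). In 23 of the 47 genes all 6 KO FT libraries lay below all 6 WT FT libraries (9.39% of tested genes). These 6 were among them, with for instance 308, 350 and 383 CPM against 437, 497 and 579 CPM for Eif4e.

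The 6 genes higher in KO FT after aGC were Eif5a2 (0.81 ± 0.23), Eif4g3 (0.38 ± 0.07), Eif4g1 (0.33 ± 0.06), Eif4g2 (0.33 ± 0.06), Eif4ebp2 (0.29 ± 0.08) and Eif4a2 (0.26 ± 0.06). They include the 3 scaffold genes of eIF4G. In females alone 24 genes were lower and 6 higher (24.4% and 19.0% of tested genes), and in males 36 were lower and 3 higher (22.3% and 24.2%). In females Eif4g1, Eif4g2 and Eif4g3 were at 0.56, 0.69 and 0.69 and passed, and in males they were at 0.09, -0.03 and 0.07 and did not. The difference between the sexes was not tested here. The female aGC libraries are those with high Cd8a. In them Cd8a and Cd8b1 summed to 493 to 522 CPM in KO FT and 630 to 639 CPM in WT FT. Naive T cell genes summed there to 1885 to 2000 CPM in KO FT and 2309 to 2347 CPM in WT FT. Eif3a and Eif4b were higher in KO FT females (0.31 each) and lower in KO FT males (-0.43 and -0.21). Leaving out the CD8-high groups keeps the males, where in that fit 36 genes were lower and 3 higher (23.4% and 24.3%), and 36 of the 42 calls were kept. Eif4a2 and the 3 scaffold genes then did not pass. With 1 profile per group no gene of the 47 passed (edgeR, 9 with an unadjusted p under 0.05), and none of the table did. When libraries were scaled by their totals alone, the median of all genes moved from 0.00 to 0.13, and 32 of the 47 were lower and 8 higher. The share of all calls that were higher then went from 48.9% to 65.8%.

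**Figure D5:**
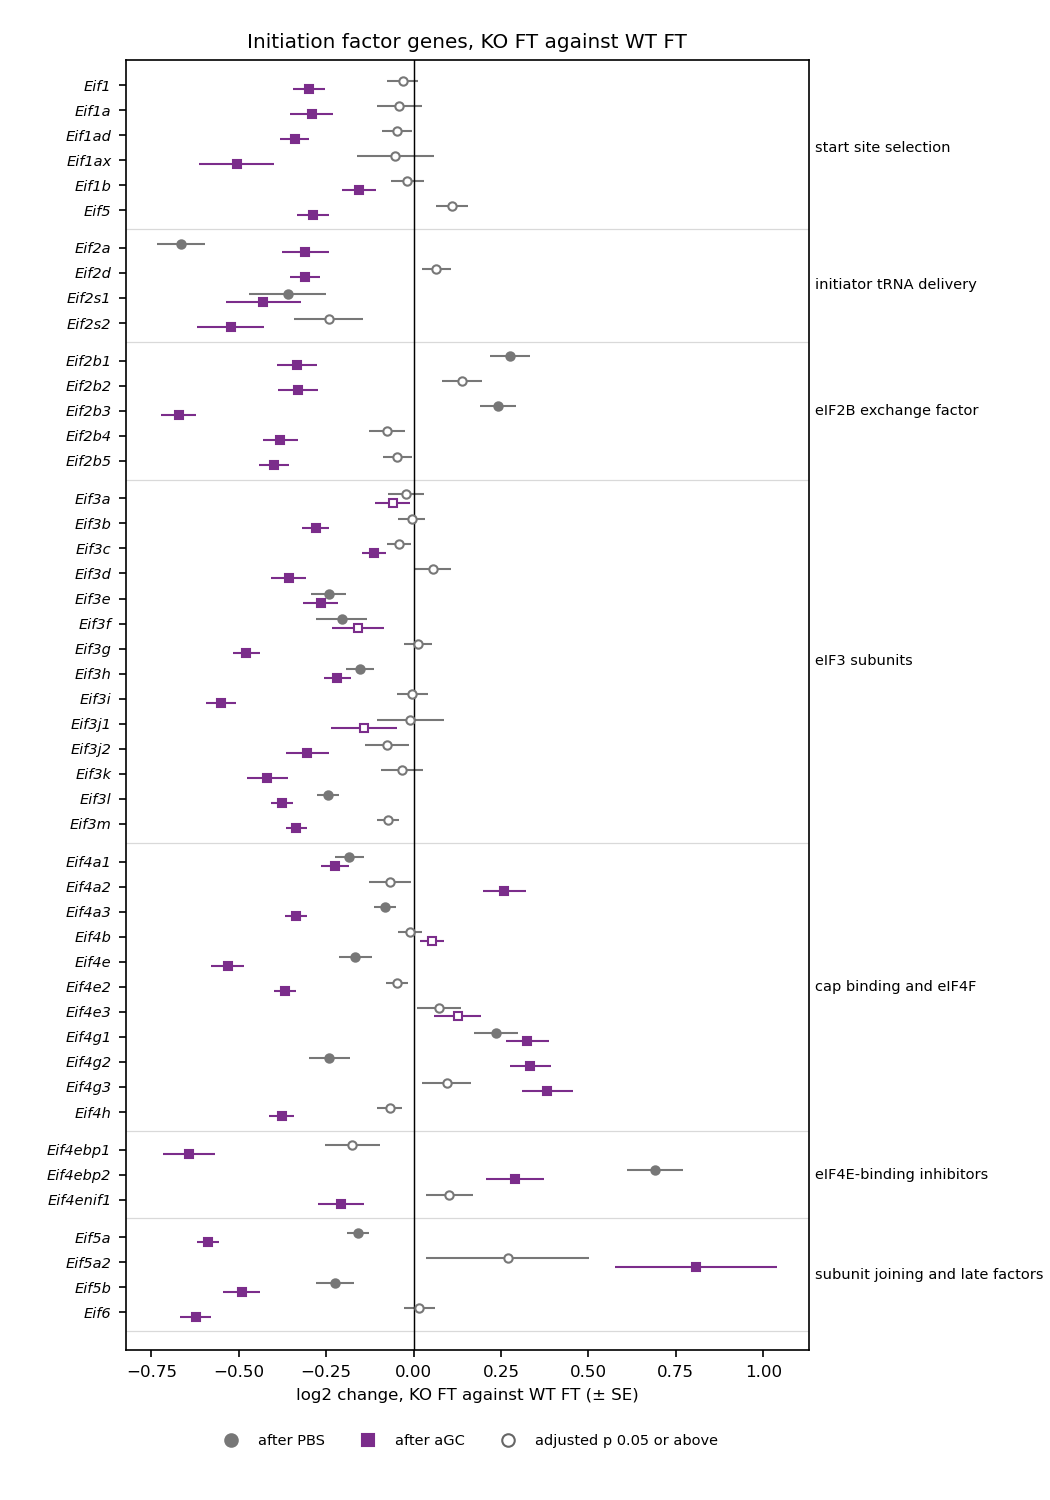
Log2 difference of each of the 47 initiation factor genes, KO FT against WT FT, after PBS (grey circles) and after aGC (purple squares), grouped by role, with bars for the SE of the edgeR fit on 24 libraries. Open symbols had an adjusted p of 0.05 or above. After PBS most genes lie near 0, and after aGC 36 lie below 0 past the threshold.

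The change of the aGC response with the donor was tested as the difference of the responses, KO FT minus WT FT, on the same libraries as the comparisons above. For 29 of the 47 genes the response was lower in KO FT, for 4 it was higher and 14 did not pass, against 22.5% and 21.9% of tested genes. The median difference was -0.27 on the log2 scale, against 0.01 for all tested genes. All 5 eIF2B genes were among the 29. Eif2b3 had the lowest value, with a response of 1.87 in WT FT and 0.96 in KO FT (difference -0.91 ± 0.07, adjusted p = 1.02e-09). Eif6 responded by 1.28 and 0.64 (difference -0.64 ± 0.06, adjusted p = 2.05e-08), Eif2b1 by 0.99 and 0.38 (difference -0.61 ± 0.08) and Eif3i by 1.36 and 0.81 (difference -0.55 ± 0.06). Eif5a, with responses of 1.63 and 1.20, differed by -0.43 ± 0.05 (adjusted p = 6.53e-08). The difference was negative for all 3 eIF4E-binding genes, from -0.31 for Eif4enif1 to -0.47 for Eif4ebp1. Eif4ebp1 and Eif4enif1 rose less in KO FT. Eif4ebp2 was at -0.04 in WT FT, which did not pass, and fell in KO FT (-0.44). Without the CD8-high groups the difference was 0.22 for Eif4ebp2 and -0.15 for Eif4enif1, and neither passed (edgeR, adjusted p = 0.305 and 0.423).

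Several abundant members did not pass for a difference of response. Eif4a1 differed by -0.04 ± 0.06, Eif2s1 by -0.07 ± 0.15, Eif3a by -0.04 ± 0.07, Eif3c by -0.07 ± 0.05 and Eif4b by 0.06 ± 0.05 (SE). The value of Eif2s1 averages sexes whose responses in WT FT differed (female minus male, log2 -1.61), so it does not show an unchanged response in each sex. Eif3a was at -0.55 and passed without the CD8-high groups (adjusted p = 0.000190). The 4 genes with a positive difference were Eif4g2 (0.57 ± 0.08), Eif2a (0.36 ± 0.09), Eif4a2 (0.33 ± 0.09) and Eif4g3 (0.29 ± 0.10). Of these, Eif4a2 and Eif4g3 fell past the threshold in WT FT and did not pass in KO FT. The difference for Eif4g3 lost its call without WT FT PBS female replicate 3 or KO FT PBS male replicate 2 (edgeR, adjusted p up to 0.0560). Without the CD8-high groups the response was lower in KO FT for 28 of the 47 and higher for 3 (21.4% and 23.2% of tested genes). Of the 33 calls 25 were kept with their direction. Eif2a was then at -0.0058 and did not pass, Eif4g3 passed in the other direction at -0.37, and Eif4a2 was at 0.33 and did not pass (adjusted p = 0.0598). With library totals alone as the scaling the counts were 22 and 6, the median of all genes moved from 0.01 to 0.13, and the share of all calls that were higher from 49.3% to 64.2%. No gene of the 47, nor any of the table, passed with 1 profile per group (edgeR, 4 of the 47 with an unadjusted p under 0.05).

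Sex was compared with the 4 combinations of FT and treatment weighted equally. Differences were small: 6 of the 47 genes were higher in females, 11 lower and 30 did not pass, against 20.7% and 17.0% of tested genes. Among those that passed, the values ran from -0.28 ± 0.04 for Eif4g1 to 0.23 ± 0.08 for Eif1ax, the X-linked gene of eIF1A. Eif1ax lost its call without WT FT PBS male replicate 2 or KO FT PBS female replicate 1 (adjusted p up to 0.0615). With library totals as the scaling 1 gene was higher and 17 were lower in females. None of the 47 passed with 1 profile per group (edgeR, 0 with an unadjusted p under 0.05), against 0.00627% of tested genes higher and 0.0251% lower.

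The sexes differed more in the response to aGC. In WT FT mice 38 genes rose and 4 fell in females (28.6% and 29.7% of tested genes), and 40 rose and 3 fell in males (31.6% and 34.9%). In KO FT mice 37 rose and 5 fell in females (27.6% and 28.2%), and 41 rose and 2 fell in males (26.7% and 26.6%). In WT FT the log2 response was lower in females for 20 genes and higher for 7 (24.1% and 23.4% of tested genes). In KO FT it was lower for 17 and higher for 5 (25.2% and 21.3%).

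The widest gaps in WT FT were those of both measured eIF2 subunit genes among the 47. Eif2s1 went from 258, 267 and 287 CPM to 340, 367 and 370 CPM in females, and from 119, 138 and 154 CPM to 467, 564 and 640.5 CPM in males. The log2 responses were 0.41 and 2.02, a difference of -1.61 ± 0.22 (adjusted p = 6.07e-06). Eif2s2 responded by 0.65 in females and 2.09 in males (difference -1.44 ± 0.19). In KO FT these differences were -0.43 and -0.44 and did not pass. The initiation factor genes had their highest group mean in WT FT aGC males for 34 of the 47 genes, against 19.9% of tested genes.

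Eif4g2 reversed between the sexes of WT FT mice. It went from 899, 935 and 955 CPM to 580, 583 and 592 CPM in females and from 486, 580 and 587 CPM to 838, 953 and 1017 CPM in males (log2 changes -0.67 ± 0.08 and 0.76 ± 0.08). No library overlapped between treatments in either sex. In KO FT it rose in both sexes, by 0.94 in females and 0.31 in males. In WT FT its level was thus lower in the CD8-high groups than in the others. In KO FT the PBS groups had the opposite order, and the aGC groups overlapped. Eif1 and Eif5 fell in KO FT females (-0.19 and -0.17) and rose in KO FT males (0.21 and 0.39). The sexes of each FT and treatment also differ in Cd8a, so sex and the CD8-high pattern cannot be told apart in these comparisons.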

How the data were processed

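Sorted iNKT cells of 24 libraries were profiled by RNA sequencing of total RNA with a Nextera XT library, which keeps no strand, per the labels' protocols. The deposited values are estimated counts per gene, made with kallisto on GRCm38 (mm10), per the submitters' processing notes. Neither the version of kallisto nor its annotation, nor the gate and mice behind each library, is given in the sources used here. kallisto divides reads between similar transcripts by estimation, so paralogues and pseudogene copies can share counts.

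The 47 genes, the list of other translation genes and the comparisons were chosen with earlier results of these data known. Gene types, positions and transcript lengths came from GENCODE, and promoter sequences from RefSeq. Estimated counts were used as deposited, filtered with filterByExpr (minimum count 10, total 15) and scaled by TMM. They were fitted with edgeR's quasi-likelihood test (edgeR 4.0.16, limma 3.58.1, R 4.3.3) with 8 group means and 16 residual degrees of freedom. The Benjamini-Hochberg adjustment covered all 15953 tested genes, with a threshold of 0.05. SEs were taken from the log2 change and the F statistic. Levels are TMM-scaled CPM. Libraries of a group differed by more than counting noise, their chi-square divided by its degrees of freedom being 3.93 to 15.6 over 24 pairs.

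Full values were given for the members with the largest rise and fall of each role for aGC in WT FT, for the eIF4E-binding genes, for members whose direction or response differed between FTs and, for sex, Eif1ax. Of the other translation genes at most 6 per role were named, by the lowest adjusted p for aGC in WT FT or, where they did not pass, by level. Alternatives were scaling by relative log expression, library totals alone, DESeq2 1.42.0, no filter, a replicate block, each library left out, 1 profile per group and leaving out the groups with high Cd8a. Adding the counts of near-identical copies was chosen after seeing the data. Protein sequences were not used here. The fit was tested on simulated counts. The level of 1 marker gene is not reported here.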

Additional observations from a re-analysis of the deposited data

Results flagged for a closer look

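The results below are those in which the response to aGC differed between the FTs or the sexes by a test of the difference itself (edgeR, adjusted p under 0.05). Values are log2 differences of the response, KO FT minus WT FT, unless stated otherwise.

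Start site selection and eIF2B genes had a lower response in KO FT: Eif1 (-0.27), Eif1a (-0.25), Eif1ad (-0.29), Eif1ax (-0.45), Eif5 (-0.40), Eif2b1 (-0.61), Eif2b2 (-0.47), Eif2b3 (-0.91), Eif2b4 (-0.30) and Eif2b5 (-0.35). So did the eIF3 genes Eif3b (-0.27), Eif3d (-0.41), Eif3g (-0.49), Eif3i (-0.55), Eif3j2 (-0.23), Eif3k (-0.39), Eif3l (-0.13) and Eif3m (-0.26). For Eif2d, a tRNA delivery factor, the value was -0.38. Among the cap-binding genes it was -0.25 for Eif4a3, -0.37 for Eif4e, -0.32 for Eif4e2 and -0.31 for Eif4h. Among the genes for proteins that bind eIF4E it was -0.47 for Eif4ebp1, -0.40 for Eif4ebp2 and -0.31 for Eif4enif1. The genes of the late steps were at -0.43 for Eif5a, -0.27 for Eif5b and -0.64 for Eif6. The difference was positive for Eif2a (0.36), Eif4a2 (0.33), Eif4g2 (0.57) and Eif4g3 (0.29). Eif2a rose more in KO FT, but without the CD8-high groups its difference was -0.0058. Eif4g2 rose in KO FT (0.62) and did not pass in WT FT (0.05), where it fell in females and rose in males. Among males alone it rose less in KO FT than in WT FT. Eif4a2 fell in WT FT (-0.44) and did not pass in KO FT (-0.11), and so did Eif4g3 (-0.18 and 0.10).

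The calls of Eif1a, Eif3j2 and Eif4g3 were lost when single libraries were left out. With the counts of Eif3j1 added to Eif3j2, the value was -0.20 and did not pass (edgeR, adjusted p = 0.0532).

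Between females and males the response differed past the threshold for 27 of the 47 genes in WT FT (47.4% of tested genes) and for 22 in KO FT (46.5%), shares near those of all genes. In WT FT the lowest values, female minus male, were those of Eif2s1 (-1.61) and Eif2s2 (-1.44). In KO FT they were those of Eif4ebp1 (-0.85) and Eif1ax (-0.76). Cd8a was high in 1 sex of each FT and treatment, and its part in these differences was not tested.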

How the results depend on the processing

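The counts of genes past the threshold, higher and lower, were 39 and 3 for aGC in WT FT, 38 and 3 for aGC in KO FT, 4 and 12 for FT after PBS, 6 and 36 for FT after aGC, 4 and 29 for the difference of the responses, and 6 and 11 for sex. Scaling by relative log expression gave the same counts, and DESeq2 gave 39 and 3, 39 and 3, 4 and 14, 6 and 36, 4 and 29, and 7 and 12. Library totals without scaling moved the median of all genes from -0.11 to -0.26 for aGC in WT FT and gave 39 and 4, 37 and 4, 4 and 12, 8 and 32, 6 and 22, and 1 and 17. The share of all sex calls that were higher in females then moved from 54.9% to 42.7%, and Eif3c was at 0.015 for FT after aGC. Without a filter on low counts the sex counts were 6 and 6. With 1 profile per group they were 22 and 0 for aGC in WT FT, 6 and 0 for aGC in KO FT, and 0 and 0 in the other 4 comparisons, fitted on 3 residual degrees of freedom. Without the CD8-high groups FT after PBS gave 12 higher genes and FT after aGC 3. Among values past the threshold in either fit, those that then changed sign were Eif4g3 (0.27, aGC in WT FT), Eif5 (-0.075, aGC in KO FT), Eif1 (0.19), Eif3k (0.28), Eif4a3 (0.056), Eif4e2 (0.18), Eif4ebp1 (0.33), Eif5a (0.11) and Eif5b (0.11, FT after PBS), Eif4b (-0.21) and Eif4g2 (-0.027, FT after aGC), and Eif2a (-0.0058), Eif4ebp2 (0.22), Eif4g1 (-0.29) and Eif4g3 (-0.37, difference of the responses). Over all 47 genes, past the threshold or not, the sign changed in 2, 3, 16, 2 and 7 genes for aGC in WT FT, aGC in KO FT, FT after PBS, FT after aGC and the difference of the responses. That setting leaves PBS females and aGC males, so FT is compared in females after PBS and in males after aGC, and the cause was not tested. Leaving out each of the 24 libraries gave 39 to 40 and 2 to 3, 37 to 39 and 2 to 4, 4 to 5 and 9 to 14, 6 and 36 to 37, 3 to 4 and 27 to 30, and 3 to 9 and 6 to 12. For sex, 3 genes were higher without WT FT PBS male replicate 2. There 6 genes were lower without KO FT aGC male replicate 1, and 7 without WT FT PBS female replicate 1, WT FT aGC female replicate 3, WT FT aGC male replicate 1 or KO FT aGC female replicate 2. Replicate numbers are shared by the groups, but deviations of same-numbered libraries had a median correlation of -0.01 over 84 pairs, 12 of them over 0.1, so they were not taken as pairs. With the replicate block the counts were 39 and 3, 38 and 3, 4 and 11, 6 and 36, 4 and 29, and 6 and 9. Depth limited Eif5a2 most, at 0.533 to 3.53 CPM.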
